A study of Mus musculus with 15 samples.

Results

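T-cell receptor gene segments are the variable, joining and constant pieces from which thymocytes assemble their antigen receptors. The segments examined were all probe sets whose single gene symbol marks a variable, joining or constant segment of the alpha, beta, gamma or delta chain, the diversity segments not being covered. This rule found 10 probe sets of 9 genes among the 35556 probe sets of the array. All 10 are variable (V) segments: 7 of the alpha chain (Trav), 1 of the beta chain (Trbv1), 1 of the gamma chain (Trgv1) and 1 of the delta chain (Trdv2-2). No constant or joining segment had a probe set with a single symbol of its own. A further 42 probe sets carry symbols of several segments, and they are described separately, without gene names.

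Whole thymus was taken from 15 female mice aged 5 weeks, 2 h after an intravenous dose of 0.5 µg of peptide. The mice were NOD.LCMV or NOD.Ln82-LCMV, and the peptide was gp33 or a control peptide that also binds the class I molecule Db. NOD.Ln82-LCMV gave 4 mice with the control peptide and 5 with gp33, and NOD.LCMV gave 3 with each. The gp33 peptide is a fragment of a lymphocytic choriomeningitis virus (LCMV) protein that CD8 T cells recognise on Db. Per the labels the mice are biological replicates. The labels describe neither a receptor transgene or promoter behind the name LCMV, nor the Ln82 segment, nor a batch, so strain and any batch tied to it cannot be told apart. By its title the series concerns Nfkbid, placed at the Idd7 locus, and how NOD thymuses delete CD8 T cells.

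During thymocyte development the recombinase joins a V segment to a joining segment, with a diversity segment between them in the beta and delta chains. The constant region is joined to the product later, when the RNA transcript is spliced. The beta chain is joined first and pairs with the surrogate chain encoded by Ptcra, and the alpha chain follows at the double-positive stage. A mouse that carries a rearranged beta transgene rearranges and expresses few of its own beta segments, because a finished beta chain halts further beta joining. The P14 receptor, a commonly used transgenic receptor against gp33, takes its alpha chain from the Trav14 family and its beta chain from the Trbv13 family. Segments of a family are close copies of each other, so a probe set of one may also bind another. The annotation does not say which part of a transcript the probes cover.

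Values are log2 intensities, and median values of the arrays lay between 7.59 and 7.67. They lay at 7.59 to 7.63 in NOD.Ln82-LCMV and at 7.63 to 7.67 in NOD.LCMV, an offset not removed from the strain differences. The 7 measured thymocyte markers averaged 11.25 to 12 on each array, above those medians, so thymocyte RNA was measured on every array. One array stood apart on some of the segments. NOD.Ln82-LCMV control replicate 1 lay outside the range of the other 8 NOD.Ln82-LCMV arrays on 4 of the 10 segments, by 2.54 for Trbv1, 0.96 for Trdv2-2, 0.56 for Trgv1 and 0.25 for the brighter Trav14-1 probe set. In all 4 cases it lay toward the mean of NOD.LCMV. On Trbv1, Trgv1 and that Trav14-1 probe set it fell inside the NOD.LCMV range, and on Trdv2-2 it lay above it. The share of all probe sets on which this array lay outside the other 8 was not counted. The count of 4 of 10 therefore cannot be read as particular to the segments. Over the whole array the picture was divided. Of 68 probe sets with a gap of more than 0.5 between the other 8 arrays and the 6 NOD.LCMV arrays, replicate 1 was nearer to NOD.LCMV on 29 and nearer to the 8 on 39. It was not the most deviant array by whole-array measures. NOD.Ln82-LCMV gp33 replicate 5 had a lower limma array weight (0.318 against 0.658). It also had more probe sets lying over 1 outside the rest of the strain (19 against 15). The weight of NOD.Ln82-LCMV control replicate 4 was 0.594. For control replicate 1, the mean levels of several gene lists also lay at an end of the 9 NOD.Ln82-LCMV arrays. Those of the 4 measured B-cell markers (7.85), of γδ T-cell and natural killer markers (6.79) and of thymic epithelium markers (10.07) were the lowest. Those of thymocyte (12), mature single-positive T-cell (9.61) and endothelial markers (9.05) were the highest. So were those of V(D)J recombination genes (9.95) and of factors that bind the receptor enhancers (11.44). Whether these bear on its segment values was not tested. On Trbv1, Trgv1 and the brighter Trav14-1 probe set the array goes against its strain label. On the segments other than the 4 named it lay within the range of the other 8. Whether the mouse carried the labelled genotype or the same receptor background as the others was not tested. The strain results that use this array are given with and without it. It was singled out on these same segment values. Leaving it out therefore widens the control strain differences of those 4 and narrows their spread. The smaller p-values without it are not separate support.

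**Figure D1:**
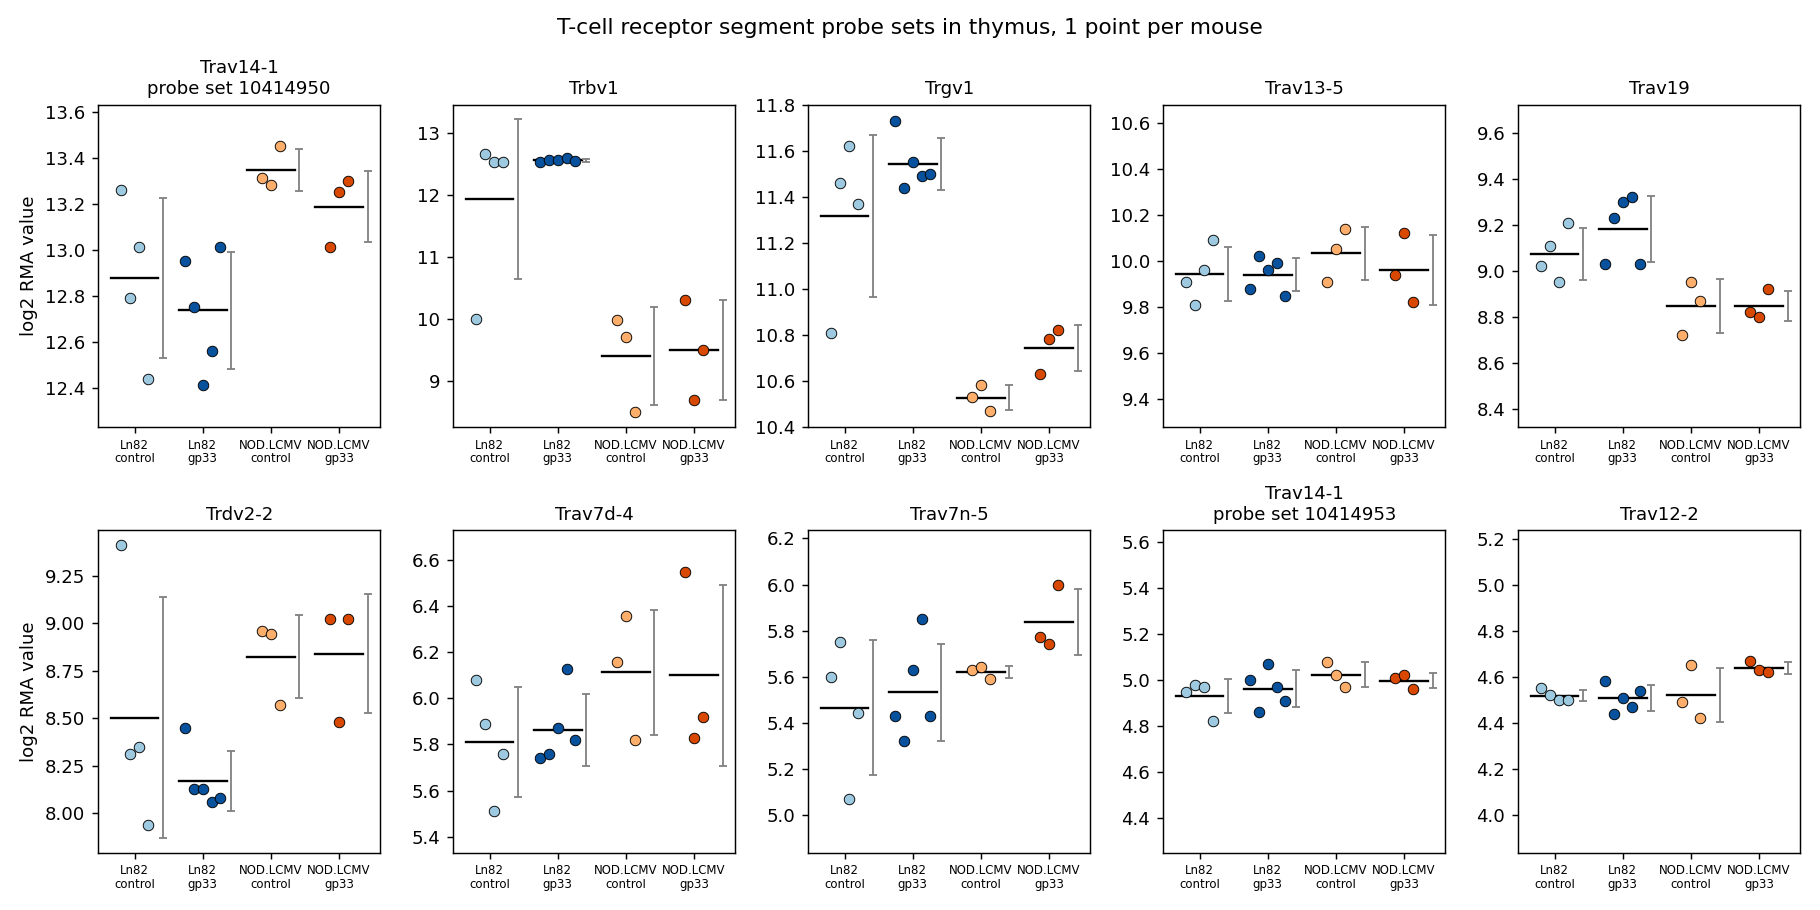
Log2 intensity of the 10 V-segment probe sets (1 panel each) in every mouse, with a point per mouse, a line at each group mean and a gray bar of 1 SD either side; Ln82 stands for NOD.Ln82-LCMV, and each panel has its own axis. Trbv1 sits between 12.54 and 12.66 in 8 of 9 NOD.Ln82-LCMV mice and between 8.50 and 10.31 in NOD.LCMV, with NOD.Ln82-LCMV control replicate 1 at 10.

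The beta segment Trbv1 gave the largest strain difference. It is the first V segment of the beta locus in gene order, on chromosome 6. With the control peptide, the 4 NOD.Ln82-LCMV mice measured 10, 12.66, 12.54 and 12.54 (11.94 ± 1.29, SD, n = 4), and the 3 NOD.LCMV mice measured 9.99, 9.72 and 8.50 (9.40 ± 0.79, SD, n = 3). With gp33, the 5 NOD.Ln82-LCMV mice measured 12.55, 12.54, 12.57, 12.57 and 12.60 (12.57 ± 0.02, SD, n = 5), against 10.31, 8.70 and 9.50 in NOD.LCMV (9.50 ± 0.81, SD, n = 3). The strains did not overlap with either peptide, although control replicate 1 of NOD.Ln82-LCMV, at 10, stood beside the highest NOD.LCMV control at 9.99. The difference, given throughout as NOD.LCMV minus NOD.Ln82-LCMV, was -2.53 ± 0.57 (SE) with the control peptide, a 5.78-fold lower level (95% interval 2.46 to 13.6, adjusted p = 0.0125, limma). With gp33 it was -3.06 ± 0.55, or 8.36-fold lower (3.69 to 18.9, adjusted p = 0.00107, limma). An exact two-sided permutation test gave p = 0.0571 over the 35 splits of the control mice (the smallest possible is 0.0286) and 0.0179, the smallest possible of 56 splits, with gp33. Without NOD.Ln82-LCMV control replicate 1 the control difference was -3.18 ± 0.37 (adjusted p = 0.000227, limma). Without NOD.LCMV control replicate 3 it was -2.08 with an adjusted p of 0.0737, and in a fit of only the groups compared the adjusted p was 0.0806.

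The spread of Trbv1 was also unlike in the strains. The other 8 NOD.Ln82-LCMV mice lay between 12.54 and 12.66 (SD 0.04), whereas the 6 NOD.LCMV mice lay between 8.50 and 10.31 (SD 0.72). This difference in spread was not tested. The 1 probe set that carries several Trbv symbols was also variable in NOD.LCMV. Its control mice measured 8.76, 8.39 and 7.23 and its gp33 mice 9.61, 7.01 and 8.75. In NOD.Ln82-LCMV it lay at 6.06 to 6.59 in 8 mice, and control replicate 1 stood at 9.16, inside the NOD.LCMV range. It was therefore higher, not lower, in NOD.LCMV: by 2.14 ± 0.67 with gp33 (adjusted p = 0.0327, limma) and by 1.11 with the control peptide (adjusted p = 0.375). The control value was 1.83 without control replicate 1 (adjusted p = 0.0354), and the gp33 call was lost when NOD.Ln82-LCMV gp33 replicate 1, 2, 3 or 5 or NOD.LCMV gp33 replicate 1 or 3 was left out (adjusted p 0.0506 to 0.17). Within the 6 NOD.LCMV mice the beta probe sets varied together, with Pearson r = 0.955 (exact permutation p = 0.00972) and Spearman rho = 0.886 (exact permutation p = 0.0333), the 1 relation computed. Without the 2 mice farthest from the median r was 0.789 over 4 mice. The probe sets may share probes or bind related transcripts, so they are not independent measures.

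**Figure D2:**
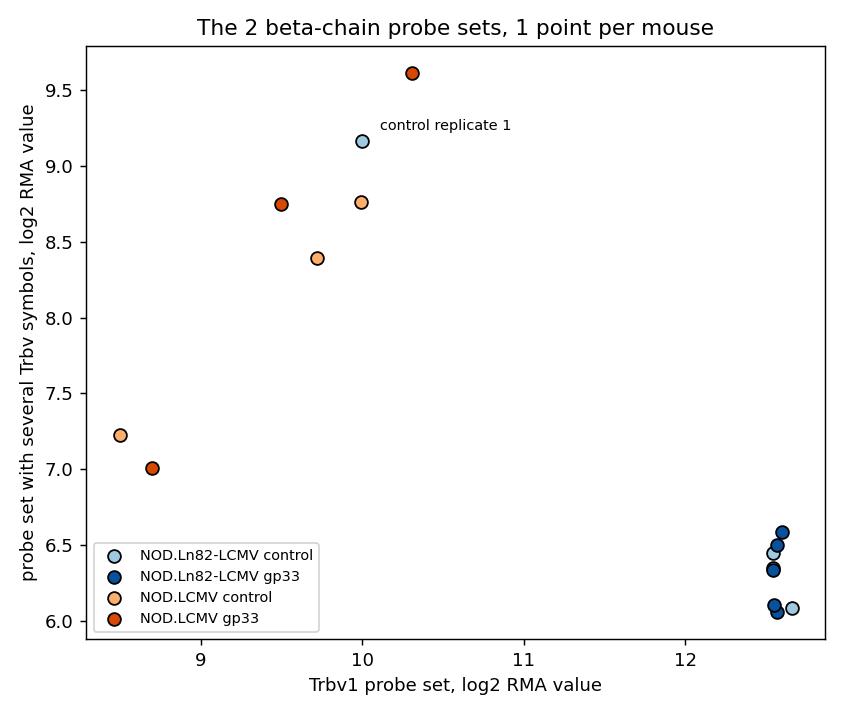
Log2 intensity of Trbv1 (horizontal axis) against the probe set that carries several Trbv symbols (vertical axis), 1 point per mouse. NOD.LCMV mice are spread from 8.50 to 10.31 on Trbv1, 8 NOD.Ln82-LCMV mice lie at 12.54 to 12.66 and 6.06 to 6.59, and control replicate 1 lies at 10 and 9.16.

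The gamma segment Trgv1 was lower in NOD.LCMV as well. Gamma chains pair with delta chains in γδ T cells, and Trgv1 is a segment of the gamma locus on chromosome 13. With the control peptide the NOD.Ln82-LCMV mice measured 10.81, 11.46, 11.62 and 11.37 (11.32 ± 0.35, SD, n = 4) and the NOD.LCMV mice 10.53, 10.58 and 10.47 (10.53 ± 0.06, SD, n = 3). With gp33 they measured 11.50, 11.73, 11.44, 11.55 and 11.49 (11.54 ± 0.11, SD, n = 5) and 10.63, 10.78 and 10.82 (10.74 ± 0.10, SD, n = 3). The strains did not overlap with either peptide. The differences were -0.79 ± 0.14 with the control peptide (1.73-fold lower, 95% interval 1.40 to 2.14, adjusted p = 0.00359, limma) and -0.80 ± 0.14 with gp33 (1.74-fold lower, 1.42 to 2.13, adjusted p = 0.000727, limma). The exact permutation p-values were 0.0571 and 0.0179, the latter the smallest possible. Without NOD.Ln82-LCMV control replicate 1 the control difference was -0.96 ± 0.08 (adjusted p = 5.85e-05).

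Of the 3 probe sets that carry several Trgv symbols, 2 were called lower in NOD.LCMV with either peptide. They differed by -0.50 ± 0.08 and -0.48 ± 0.09 with the control peptide (adjusted p = 0.00155 and 0.00301, limma). With gp33 the values were -0.42 ± 0.08 and -0.36 ± 0.08 (adjusted p = 0.000953 and 0.00489, limma). Without control replicate 1 the control values were -0.56 ± 0.08 and -0.54 ± 0.08 (adjusted p = 0.000607 and 0.00122). The third was dim (mean 6.48) and not called. It gave -0.10 with the control peptide (limma adjusted p = 0.867, -0.05 without control replicate 1) and 0.26 with gp33 (0.498). Over all probe sets 4.71% were lower with the control peptide and 12.1% with gp33. These probe sets and Trgv1 may share probes or bind related transcripts, so they are not independent measures. Of 6 markers of γδ T and natural killer cells, none passed the test with the control peptide (2 lower without control replicate 1), and the natural killer genes Ncr1, Klrk1 and Klrb1c were dim (mean 5.03 to 5.69). With gp33, 3 were lower in NOD.LCMV: Blk (-0.50), Ncr1 (-0.47) and Klrk1 (-0.32). Over all genes, 1 probe set per gene, 5.33% were lower with the control peptide and 15.8% with gp33. The transcription factors Sox13 and Zbtb16 did not pass, with values of 0.18 and 0.08 with the control peptide and -0.03 and 0.07 with gp33. The mean of the 6 markers spanned 6.79 to 7.09 and 7.06 to 7.16 in NOD.Ln82-LCMV with the control peptide and gp33, and 6.90 to 6.94 and 6.86 to 6.92 in NOD.LCMV. The part of these cells in the Trgv1 difference was not tested. In bulk tissue, fewer cells of a type and less RNA per cell cannot be told apart.

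The delta segment Trdv2-2, which lies among the last segments of the alpha and delta locus on chromosome 14, was not called in either strain comparison. The NOD.Ln82-LCMV control mice measured 9.41, 8.31, 8.35 and 7.94 and the NOD.LCMV controls 8.96, 8.94 and 8.57, which overlap. With gp33 the NOD.Ln82-LCMV mice measured 8.08, 8.45, 8.13, 8.13 and 8.06 and the NOD.LCMV mice 9.02, 8.48 and 9.02. Those groups did not overlap, with 8.45 the highest of one and 8.48 the lowest of the other (exact permutation p = 0.0179, the smallest possible). The differences were 0.32 ± 0.26 (adjusted p = 0.527) and 0.67 ± 0.25 (adjusted p = 0.0743). Without NOD.Ln82-LCMV control replicate 1 both passed, at 0.62 ± 0.17 (adjusted p = 0.0253) and 0.67 ± 0.15 (adjusted p = 0.00521). The latter difference does not involve that mouse's own values, only the estimate of the spread. That mouse was singled out partly on this segment, so the passes without it are not separate support.

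The alpha segments differed little. Trav14-1, of the family that P14 uses, has 2 probe sets that do not share a level. The brighter one (10414950) measured 13.26, 12.79, 13.01 and 12.44 in NOD.Ln82-LCMV controls and 13.31, 13.28 and 13.45 in NOD.LCMV controls. With gp33 the values were 13.01, 12.95, 12.75, 12.41 and 12.56 against 13.01, 13.25 and 13.30. NOD.LCMV lay higher by 0.47 ± 0.17 and 0.45 ± 0.17, but neither passed (adjusted p = 0.106 and 0.0692, limma). Without NOD.Ln82-LCMV control replicate 1 they did, at 0.60 ± 0.16 (adjusted p = 0.0293) and 0.45 ± 0.15 (adjusted p = 0.0416). The gp33 value also passed under 5 processing alternatives (adjusted p 0.0342 to 0.0492), without NOD.Ln82-LCMV control replicate 4 (0.032) and without NOD.Ln82-LCMV gp33 replicate 5 (0.0418). The dimmer Trav14-1 probe set (10414953) stayed between 4.82 and 5.08 on all arrays, and its strain differences were 0.09 and 0.03 (the former 0.10 without control replicate 1). It lies below the dim limit of 6.61, under which the dimmest 33.3% of all probe sets fall, as do Trav7d-4, Trav7n-5 and Trav12-2. Dim probe sets sit close to background, so a small difference there has little resolution.

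Trav19 was the 1 alpha segment called. In NOD.Ln82-LCMV controls it measured 9.02, 9.11, 8.95 and 9.21 and in NOD.LCMV controls 8.72, 8.95 and 8.87, which overlap at 8.95 (-0.23 ± 0.09, adjusted p = 0.117, and -0.24 ± 0.10 without control replicate 1, adjusted p = 0.117). With gp33 the values were 9.03, 9.03, 9.23, 9.30 and 9.32 against 8.82, 8.80 and 8.92, with no overlap. NOD.LCMV was lower by -0.34 ± 0.08 (1.26-fold, 95% interval 1.12 to 1.43, adjusted p = 0.00898, limma; exact permutation p = 0.0357). The remaining alpha segments did not pass with either peptide. Their strain differences were 0.30 and 0.24 for Trav7d-4, 0.15 and 0.31 for Trav7n-5, 0.00 and 0.13 for Trav12-2, and 0.09 and 0.02 for Trav13-5. Without control replicate 1 the control values were 0.39, 0.20, 0.01 and 0.08 in the same order. Trav12-2 measured 4.54, 4.58, 4.44, 4.51 and 4.47 in NOD.Ln82-LCMV and 4.67, 4.63 and 4.62 in NOD.LCMV with gp33, with no overlap (exact permutation p = 0.0357, limma adjusted p = 0.0675). It passed with a variance trend (adjusted p = 0.0405), with array weights (0.034), and without NOD.Ln82-LCMV gp33 replicate 1, NOD.LCMV control replicate 2 or NOD.LCMV control replicate 3 (0.0263 to 0.0492). Trav13-5 is bright, at 9.81 to 10.14 across all mice.

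Counted over the 10 probe sets, 2 were lower and 0 higher in NOD.LCMV with the control peptide, where 11% of all probe sets were called, 4.71% lower and 6.33% higher. With gp33, 3 were lower and 0 higher, where 23.2% of all probe sets were called, 12.1% lower and 11.1% higher. The medians of the 10 differences were 0.09 and 0.08, against 0.03 and 0.001 over all probe sets. Leaving out NOD.Ln82-LCMV control replicate 1 took the counts to 4 and 5 (background 13.6% and 23.9%), the additions being the brighter Trav14-1 probe set and Trdv2-2. Both are among the segments on which that mouse was singled out, so this rise is not separate support. With gp33 the same additions passed without NOD.Ln82-LCMV control replicate 4. Leaving out NOD.LCMV control replicate 3 left 1 call with the control peptide.

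**Figure D3:**
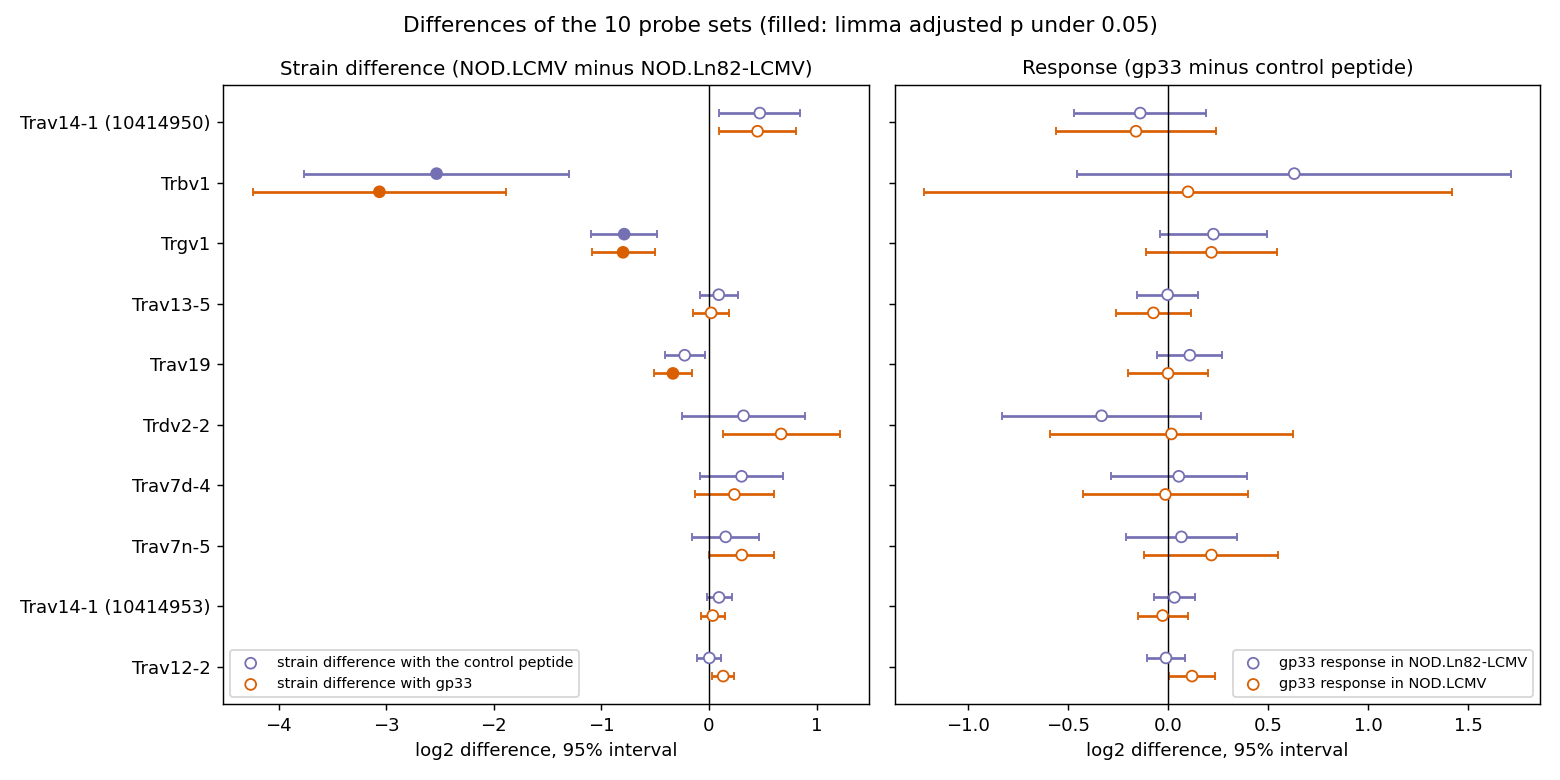
Log2 difference with its 95% interval for each of the 10 V-segment probe sets, between strains (left) and between peptides (right), with filled points for adjusted p under 0.05. Trbv1 and Trgv1 are lower in NOD.LCMV with either peptide, Trav19 with gp33, and no gp33 response is called.

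**Figure D4:**
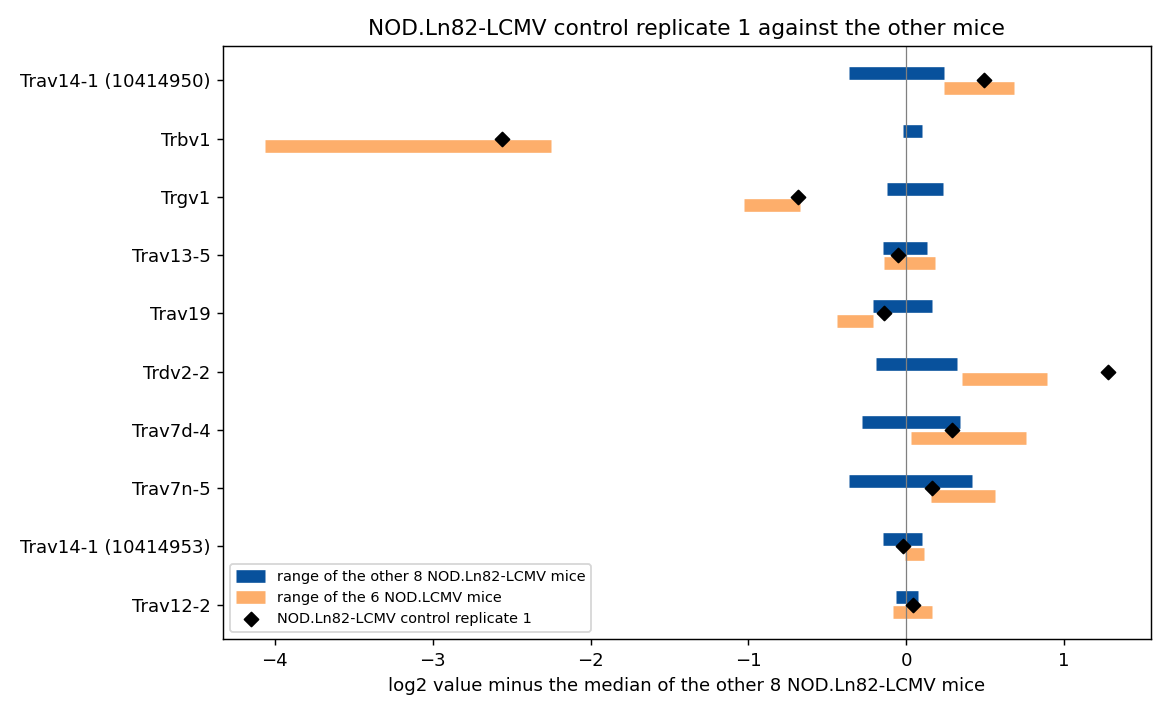
Log2 value minus the median of the other 8 NOD.Ln82-LCMV mice for each V-segment probe set, with a diamond for NOD.Ln82-LCMV control replicate 1 and bars for the range of those 8 mice and of the 6 NOD.LCMV mice. The replicate lies outside the other 8 on 4 segments, by 2.54 on Trbv1.

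The peptide itself left the segments without a called change at 2 h. In NOD.LCMV, 0 of 10 were called, against 12.7% of all probe sets (4.98% higher, 7.68% lower). Of all 35556 probe sets, 8043 had an unadjusted limma p under 0.05, and of the 10 segments 1 did. That was Trav12-2, at 0.12 ± 0.05 (adjusted p = 0.205), which passed when NOD.LCMV control replicate 2 was left out (0.19, adjusted p = 0.0288). The 10 responses ran from -0.16 to 0.22, with a median of 0.01 against -0.03 over all probe sets. In NOD.Ln82-LCMV, 0 of 10 were called, 0 at an unadjusted p under 0.05, and 0 of all 35556 probe sets were called (1845 at an unadjusted p under 0.05). Those responses ran from -0.33 for Trdv2-2 to 0.63 ± 0.50 for Trbv1, and both rest on control replicate 1. Without it they were -0.03 and -0.01. The difference between the responses was called for 0 of 10 segments, against 4.7% of all probe sets. At an unadjusted limma p under 0.05 the counts were 0 of 10 segments and 5545 of all 35556 probe sets. For Trbv1 in NOD.LCMV the response was 0.10 ± 0.61, with a 95% interval from -1.22 to 1.42, so these arrays do not settle a change within those bounds. Trgv1 and Trav7n-5 each measured 0.22 in NOD.LCMV, where their control and gp33 mice did not overlap, with the smallest p an exact test of 3 against 3 allows (0.1). How many of all probe sets separate in this way was not counted, here or between strains. The lack of overlap therefore cannot be read as particular to the segments.

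Genes of the machinery that joins and uses the segments were followed as lists, 1 probe set per gene. Over all genes so represented, 6.71% rose and 10.7% fell with gp33 in NOD.LCMV, 3.8% were higher and 2.95% lower for the difference between the responses, and 4.67% were higher and 5.33% lower in NOD.LCMV with the control peptide. With gp33 the strain shares were 9.72% higher and 15.8% lower. Of 13 measured V(D)J recombination genes, 3 fell (10.7% over all genes) and 0 rose (6.71%) with gp33 in NOD.LCMV: Lig4, the ligase that seals the joined ends (-0.41 ± 0.08, adjusted p = 0.00331), Prkdc, the end-joining kinase (-0.26 ± 0.06, adjusted p = 0.013), and Dntt, which adds nucleotides to the junctions (-0.36 ± 0.10, adjusted p = 0.0361). None was called in NOD.Ln82-LCMV, where no probe set of the array was, and none for the difference between the responses. The count was 1 without NOD.LCMV gp33 replicate 2 and 6 with array weights. Dntt also lost its call when gp33 replicate 3, control replicate 1 or control replicate 2 of NOD.LCMV was left out, and Prkdc when control replicate 3 was. Between strains, 4 were lower (15.8% over all genes) and 0 higher (9.72%) in NOD.LCMV with gp33, among them Lig4 (-0.59, adjusted p = 4.51e-05) and Dntt (-0.51, adjusted p = 0.00118). The others were the end-joining genes Nhej1 (-0.15, adjusted p = 0.00411) and Xrcc6 (-0.36, adjusted p = 0.0246), and Xrcc6 lost its call without NOD.Ln82-LCMV gp33 replicate 2 or 3 or NOD.LCMV gp33 replicate 2. With the control peptide 1 was lower (Lig4, -0.29) and 1 higher (Prkdc, 0.23), and both calls were lost without NOD.Ln82-LCMV control replicate 3 or 4 or NOD.LCMV control replicate 1 or 3. The list's medians were -0.22 for the response in NOD.LCMV and -0.03 and -0.07 between strains with the control peptide and gp33.

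Of 5 receptor partner genes, 1 was called in any comparison. Ptcra, which pairs with the new beta chain, was lower in NOD.LCMV with gp33 by -0.70 ± 0.20 (adjusted p = 0.0218), and the call was lost without NOD.LCMV gp33 replicate 2 (-0.50, adjusted p = 0.129) or replicate 3 (adjusted p = 0.0527). Of 10 measured factors that bind the receptor enhancers, 1 rose (6.71% over all genes) and 3 fell (10.7%) with gp33 in NOD.LCMV, among them Runx1 (-0.36, adjusted p = 0.00123), and leaving out NOD.LCMV control replicate 1, control replicate 2 or gp33 replicate 2 left 1 call. Between strains, 2 were higher with the control peptide, Runx1 (0.31, adjusted p = 0.00384) and Runx3 (0.46, adjusted p = 0.0134), and the count was 4 without NOD.Ln82-LCMV control replicate 1 and 1 without NOD.LCMV control replicate 1. With gp33, 3 were higher (9.72% over all genes), among them Creb1 (0.29, adjusted p = 0.00111) and Lef1 (0.46, adjusted p = 0.00718), and Tcf12 was lower (-0.27). Without NOD.LCMV gp33 replicate 2 the count was 2. The difference between the responses was called for 1 of the factors, Creb1 (0.29, adjusted p = 0.0434), and leaving out most single mice ended that call.

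Marker lists of T cells and of other cells in the thymus were also examined. Over all genes, 4.67% were higher and 5.33% lower in NOD.LCMV with the control peptide, and 9.72% and 15.8% with gp33. In the gp33 response of NOD.LCMV, 6.71% rose and 10.7% fell. Of 7 thymocyte markers, 0 were called between strains with the control peptide, with or without control replicate 1. With gp33, 3 were lower in NOD.LCMV: the co-receptors Cd4 (-0.53, adjusted p = 0.00217) and Cd8a (-0.28, adjusted p = 0.0251), and Ptcra. In the gp33 response of NOD.LCMV 3 of the 7 fell, Cd8a (-0.51), Cd8b1 (-0.47) and Themis (-0.40), with a list median of -0.36. The part of thymocyte content in the segment values was not tested. The mean of the list per array spanned 11.81 to 12 and 11.73 to 11.97 in NOD.Ln82-LCMV and NOD.LCMV controls, and 11.68 to 11.98 and 11.25 to 11.80 with gp33.

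Of 5 measured markers of mature single-positive T cells, 1 was higher in NOD.LCMV with the control peptide, S1pr1, which lets mature cells leave the thymus (0.29, adjusted p = 0.0173), and 2 were higher without control replicate 1. With gp33, 2 were lower, S1pr1 (-0.36) and Itgb7 (-0.39), and the list medians were 0.21 and -0.36. In the gp33 response of NOD.LCMV 3 of these 5 fell. Of 4 measured B-cell markers, 1 was lower in NOD.LCMV with the control peptide and 2 with gp33 (2 and 4 without control replicate 1). Their array means were 7.85 to 8.86 and 8.48 to 9.08 in NOD.Ln82-LCMV and 7.48 to 8.43 and 7.47 to 8.01 in NOD.LCMV. Of 6 dendritic cell and macrophage markers, 1 was lower with the control peptide and 6 with gp33. The part of these cells in the segment differences was not tested.

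The genes that lie around the segments were compared to see whether whole chromosome stretches differed. These windows, 20 measured protein-coding genes on each side of a locus and those inside it, were chosen after the segment values were seen. Around the beta locus, 49 genes gave 0 higher and 2 lower in NOD.LCMV with the control peptide (Mrps33, -0.43, and Gstk1, -0.50), and 3 higher and 3 lower with gp33 (2 higher and 3 lower, then 4 and 3, without control replicate 1). None of the 9 genes measured inside the beta locus was called. Their mean levels ran from 4.71 (Try4) to 7.02 (Gm5771), most of them under the dim limit of 6.61. Many of the flanking genes were also under it, so a lack of calls there has little resolution. The largest difference in that window had a size of 0.50 with the control peptide and 0.73 with gp33, against -2.53 and -3.06 for Trbv1 itself. The alpha and delta window gave 3 higher and 3 lower of 43 genes with the control peptide and 2 and 13 with gp33, the same counts without control replicate 1. Its largest sizes were 0.69 (Mrpl52, -0.69) and 0.75 (Rab2b, -0.75), above those of every alpha and delta segment. The gamma window gave 2 and 2 of 40 genes and then 4 and 7 (2 and 4, then 5 and 6, without control replicate 1), with a largest size of 0.26 and 1.12, the latter Gpr141b (-1.12). Over all genes, 4.67% were higher and 5.33% lower with the control peptide, and 9.72% and 15.8% with gp33.

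**Figure D5:**
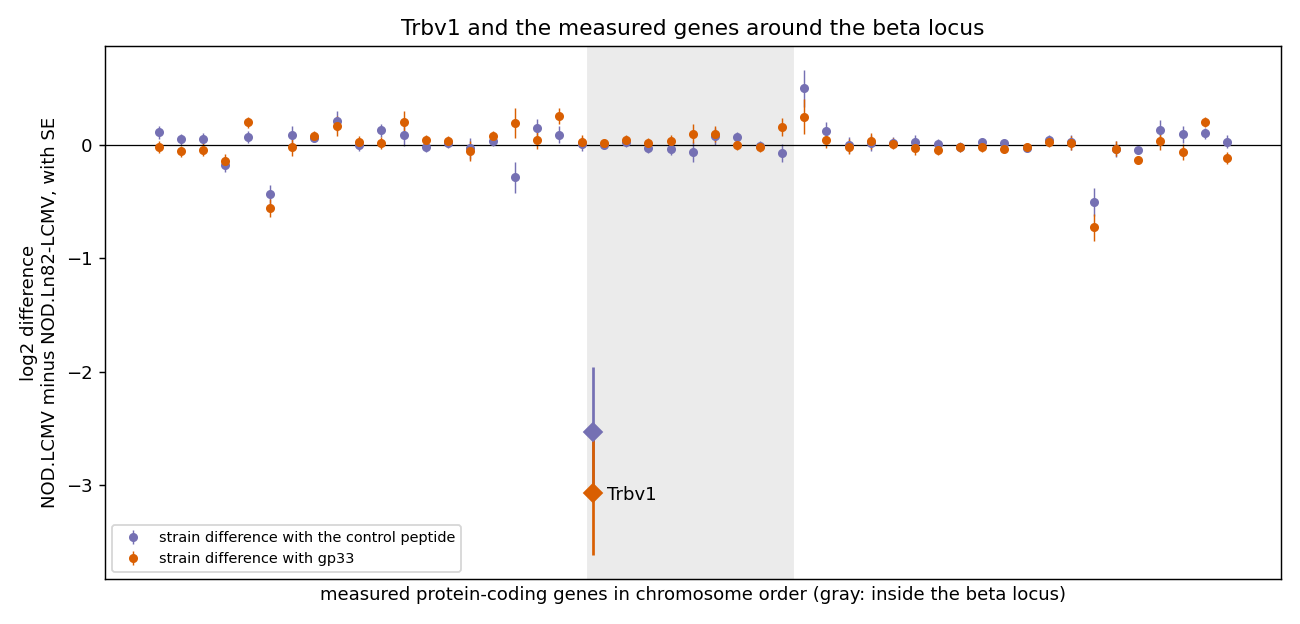
Log2 strain difference (NOD.LCMV minus NOD.Ln82-LCMV) of Trbv1 and the genes around the beta locus in gene order, with the control peptide and with gp33; bars are SE and the gray band holds genes inside the locus. Trbv1 stands at -2.53 and -3.06, and no neighbour exceeds a size of 0.73.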

How the data were processed

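Whole-thymus RNA was measured on Mouse Gene 1.0 ST arrays from Affymetrix, with 1 array per mouse. The deposited values are log2 intensities made by the authors with RMA in Affymetrix Expression Console 1.1, per the submitters' processing notes; the genome build is not given in the sources used here. RMA had already corrected background and normalised the arrays, so nothing further was normalised, although array medians still differed slightly between strains. Probe sets were named from the platform annotation: 21789 had 1 symbol, 1621 several and 12146 none. Gene order came from a GRCm38.p6 gene table, which held all 9 genes.

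All 15 arrays entered 1 limma 3.58.1 fit (R 4.3.3) with a mean per group (11 residual and 13.5 total degrees of freedom). Tests were two-sided, and calls needed an adjusted p (Benjamini-Hochberg over all 35556 probe sets) under 0.05. A gene of a list was its brightest probe set with 1 symbol. The script was tested on simulated data. Named probe sets were the Trav14 and Trbv13 members (no Trbv13 exists here), called members, the brightest and dimmest of a class, those with the smallest p where none was called, and up to 4 genes per list. The remaining members were named after their values were seen. The members, lists and alternatives were chosen with earlier results of these data known. Planned tests of constant segments could not be run, as no such member exists. Precision is limited by how few arrays each group has.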

Additional observations from a re-analysis of the deposited data

Results flagged for a closer look

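Within groups of 4 and 5 mice, the lowest or highest value stood apart from the rest, by Dixon's criterion, in 2 of 20 segment and group pairs, where chance gives about 1 in 20. In NOD.Ln82-LCMV with the control peptide, Trbv1 in replicate 1 measured 10, and the nearest of the other mice measured 12.54. In NOD.Ln82-LCMV with gp33, Trdv2-2 in replicate 1 measured 8.45, and the nearest measured 8.13. The gap took 0.955 and 0.821 of the group's range. The cause of either was not tested.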

How the results depend on the processing

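Over 1125 segment values under the alternatives, 1042 kept their direction and side of the threshold, 21 passed it, 2 no longer did and 60 changed sign, none of them a called value. Called segments with the control peptide numbered 1 in a fit of only the groups compared and 1 to 4 when single mice were left out. With gp33 they numbered 6 with array weights and 3 to 5 when single mice were left out, and the gp33 response in NOD.LCMV gave 0 to 1. Trav19 passed with the control peptide after median centring (-0.29, adjusted p = 0.0461), and the brighter Trav14-1 passed with gp33 after a second quantile normalization (0.52, adjusted p = 0.0345), without the dimmest 33.3% of probe sets (0.0492), with single-symbol probe sets (0.0486), with 1 probe set per gene (0.0477) and with array weights (0.0342). Trav12-2 passed with gp33 under a variance trend (0.0405) and array weights (0.034). The cause was not tested.

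Signs changed for values near 0. In NOD.LCMV the gp33 response of Trav7d-4 was 0.007 with quantile normalization, 0.017 with median centring and 0.067 with array weights, and that of the dimmer Trav14-1 was 0.003 with centring. In NOD.Ln82-LCMV that of Trav13-5 was 0.013 with quantile normalization and 0.02 with array weights. For the difference between responses, quantile normalization, centring and weights gave 0.003, 0.02 and 0.058 for Trgv1, and 0.012, 0.009 and 0.05 for the brighter Trav14-1. Between strains, Trav12-2 with the control peptide was -0.023 with quantile normalization and -0.064 with centring. With gp33, the dimmer Trav14-1 was -0.002 with centring, and Trav13-5 was -0.017 with centring and -0.016 with weights.

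Leaving out single mice gave these ranges. The response in NOD.LCMV ran from -0.238 to 0.122 for Trav7d-4, -0.053 to 0.002 for the dimmer Trav14-1, -0.11 to 0.197 for Trdv2-2 and -0.352 to 0.502 for Trbv1. In NOD.Ln82-LCMV it ran from -0.046 to 0.144 for Trav7d-4, -0.065 to 0.162 for Trav7n-5, -0.005 to 0.058 for the dimmer Trav14-1, -0.027 to 0.008 for Trav12-2, -0.047 to 0.047 for Trav13-5 and -0.014 to 0.873 for Trbv1. The difference between responses ran from -0.112 to 0.158 for Trgv1, -0.292 to 0.068 for Trav7d-4, -0.149 to 0.124 for the brighter Trav14-1 and -0.983 to 0.114 for Trbv1. Between strains, Trav12-2 with the control peptide ran from -0.063 to 0.052 and Trav13-5 with gp33 from -0.06 to 0.09. The probe set with several Trbv symbols gave responses from -0.247 to 1.053 in NOD.LCMV and from -1 to 0.023 in NOD.Ln82-LCMV.

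The NOD.Ln82-LCMV mice share replicate numbers 1 to 4 across peptides. The deviations of same-numbered mice correlated at -0.327 to 0.026, and those of mice with unlike numbers at -0.213 to 0.309. So few values cannot settle whether the numbers pair mice, and the main fit did not pair them. A replicate block called 0 segments, and gave 0.02 for Trav13-5.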

Other observations

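Apart from the single-symbol segments, 27 distinct probe sets carry several Trav symbols, and they are given here by count because no one gene can be named. These probe sets may share probes or bind related transcripts, so they are not independent measures. The limma fit called 0 for the gp33 response in NOD.LCMV (2 at an unadjusted p under 0.05), in NOD.Ln82-LCMV (0) and for the difference between the responses (0). Over all probe sets the shares called were 12.7%, 0% and 4.7%, and 8043, 1845 and 5545 of 35556 had an unadjusted p under 0.05. In NOD.LCMV 1 was called with array weights, without NOD.Ln82-LCMV control replicate 1, or without NOD.Ln82-LCMV gp33 replicate 1. With the control peptide 1 was higher and 0 were lower in NOD.LCMV, against 6.33% and 4.71% of all probe sets. With gp33, 2 were higher and 8 were lower, the 8 at -0.34 to -0.52, against 11.1% and 12.1% of all probe sets. The count of 8 was 3 without NOD.LCMV gp33 replicate 2, and 4 when any of gp33 replicates 1 and 3 of NOD.LCMV and gp33 replicates 2 and 3 of NOD.Ln82-LCMV was left out. It was also 4 in a fit of only the groups compared. The 2 higher with gp33 became 4 with array weights and 1 when most single mice were left out. The 1 higher with the control peptide was lost when most single mice were left out.

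Both distinct probe sets with a Trav14 symbol lay higher in NOD.LCMV. One gave 0.42 ± 0.12 with the control peptide (adjusted p = 0.0415) and 0.31 with gp33 (adjusted p = 0.0736), and the other 0.47 ± 0.15 (adjusted p = 0.0589) and 0.41 ± 0.14 (adjusted p = 0.05, just under the threshold before rounding). Without NOD.Ln82-LCMV control replicate 1 the control values were 0.55 ± 0.09 (adjusted p = 0.00138) and 0.61 ± 0.12 (adjusted p = 0.00585), and both passed with gp33 (adjusted p = 0.0106 and 0.0147). NOD.Ln82-LCMV control replicate 1 lay outside the other 8 mice of its strain on 11 of the 31 distinct probe sets that carry several segment symbols. The same share over all probe sets was not counted, so this count cannot be read as particular to these probe sets.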
